A study of Mus musculus with 8 samples.

Results

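The 10 genes described here are imprinted genes that are active in growing fetal and newborn tissue: H19, Meg3, Rian, Mirg, Dlk1, Peg3, Mest, Plagl1, Ndn and Grb10. They were chosen by name, as the rows of the deposited expression table that carry these symbols, and all 10 were found among its 24067 genes. Levels are given in FPKM, fragments per kilobase of transcript scaled to the mapped fragments of the library. All 10 genes averaged 1 FPKM or more across the 8 libraries, the minimum for testing, which 11612 genes met. The cells were articular chondrocytes, the cells of joint cartilage, grown in primary culture from knee cartilage (femur and tibia) of ICR mice aged 5 days, an outbred stock with no genetic change stated. The tested cells received a miR-204 mimic, a short synthetic duplex that supplies the mature microRNA, and the others received miR-Ctrl. Both were given at 50 nM over 24 h, with harvest a further 24 h on, and all cells were kept in DMEM with 10% fetal bovine serum at 3% O2. Each group had 4 libraries, numbered 1 to 4, and the question put to the genes is whether their levels differed with miR-204. Nothing in the labels says that the libraries came from separate animals or cultures, so the p-values measure the spread between these libraries, which may be technical.

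Genomic imprinting marks a gene in the egg or sperm, mostly by DNA methylation, so that later only the copy from the mother or only the copy from the father is read. Many imprinted genes set the rate of growth before and soon after birth, and the ones described here are in general abundant in fetal and newborn tissue and decline as growth slows. H19, Meg3, Rian and Mirg are long noncoding RNAs read from the maternal copy, and Grb10 is a maternally read adaptor in most tissues, whereas Dlk1, Peg3, Mest, Plagl1 and Ndn encode proteins and are read from the paternal copy. FPKM sums both copies, so imprinting itself was not measured.

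None of the 10 genes passed the test between miR-204 and miR-Ctrl cells over all 8 libraries. That test called 0.0258% of all tested genes higher and 0.181% lower. A mean log2 difference below 0 was found in 25.9% of all tested genes and in 8 of the 10 members. Their levels also differed between the replicate numbers: the 2 libraries numbered 2, of both groups, held the least H19, Meg3, Rian, Mirg, Dlk1, Peg3 and Plagl1. Comparing libraries of equal number over all 8 libraries called 0 members, where 12.4% of tested genes were called higher and 2.83% lower. Without the 2 libraries numbered 2 that comparison called 7 of the 10 lower and 2 higher in miR-204 cells. In that fit 4.5% of tested genes were called lower and 23.9% higher. Without number 1, 3 or 4 the comparison called 0 members, and at most 1.28% of tested genes lower and 2.03% higher.

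A microRNA finds its targets by pairing its seed, bases 2 to 8, with the RNA, and the letters that pair with the seed of miR-204-5p are therefore the first thing to look for in these transcripts. The mature microRNA (RefSeq, GRCm38.p6), with the seed in capitals, and the only 8mer matches found in the members, both in Meg3, with the paired letters and the A that follows in capitals, read 5′ to 3′:
mmu-miR-204-5p: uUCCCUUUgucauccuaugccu
Meg3 chr12:109569934-109569941, plus strand: tggaagtaaagAAAGGGAAgccaggggcct
Meg3 chr12:109569958-109569965, plus strand: gggcctggcaaAAAGGGAAtgcttagattg
The coordinates are those of the capital letters on GRCm38 (mm10), and the letters come from GENCODE M21. The search took AAAGGGAA as an 8mer, AAAGGGA as a 7mer-m8, AAGGGAA as a 7mer-A1 and AAGGGA as a 6mer, each site counted once in its longest form and on the RNA's own strand. In each gene 1 transcript was searched, the longest stretch under an accession of the expression table, or for H19 and Rian the longest annotated. Meg3 held 2 8mers, 1 7mer-m8, 1 7mer-A1 and 5 6mers in the 14548 bases of the noncoding transcript searched. Its 8mers began at bases 12756 and 12780. The level of Meg3 covers 3 transcripts, and whether the others hold these sites was not looked at. Rian held a single 6mer in 8089 bases, and the 3′ untranslated regions of Dlk1, Peg3, Mest and Grb10 held 1 6mer each. H19, Mirg, Plagl1 and Ndn held none of these letters in the stretch searched. Of the 10704 tested genes with an annotated 3′ untranslated region, 25.9% held a 7mer or 8mer there and 7.6% an 8mer. Those shares are no like comparison for Meg3, which was searched over a whole transcript, since a longer stretch has more places for a match. A match in sequence is a description, and whether these sites are bound was not tested.

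H19 was the most abundant member. It is a spliced noncoding RNA at chr7:142575529-142578143 on the minus strand, next to the growth factor gene Igf2, whose maternal copy is silent where H19 is read, and it carries the hairpin of miR-675. H19 had 1509, 726, 2274 and 1879 FPKM in miR-204 libraries 1 to 4, against 1797, 703, 2639 and 2071 FPKM in miR-Ctrl libraries 1 to 4. The 2 libraries numbered 2 held less than any of the other 6 libraries, and the groups overlapped throughout. The mean was 1597 ± 660 FPKM with miR-204 and 1803 ± 812 FPKM with miR-Ctrl (SD, n = 4 each), a log2 difference of -0.14 (SE 0.48, limma adjusted p = 0.972).

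Meg3, Rian and Mirg follow each other on the plus strand of chromosome 12 in the Dlk1-Dio3 domain, where the protein-coding gene Dlk1 lies upstream of them. Dlk1 to Mirg span 296.6 kb, with gaps of 77.66 kb from Dlk1 to Meg3, 32.21 kb from Meg3 to Rian and 68.05 kb from Rian to Mirg. Meg3 (chr12:109541001-109571726) is a nuclear long noncoding RNA, Rian (chr12:109603940-109661716) hosts C/D box small nucleolar RNAs, and Mirg (chr12:109729764-109749460) hosts much of a large microRNA cluster, with 14 annotated hairpins on its strand inside the gene. Meg3 had 84.7, 42.4, 117 and 111 FPKM in miR-204 libraries 1 to 4, against 102, 37.1, 130 and 137 FPKM in miR-Ctrl libraries 1 to 4. Rian had 91.7, 59.0, 149 and 125 FPKM in miR-204 libraries 1 to 4, against 114, 53.6, 161 and 140 FPKM in miR-Ctrl libraries 1 to 4. Mirg had 7.29, 4.88, 17.0 and 10.7 FPKM in miR-204 libraries 1 to 4, against 10.5, 3.77, 16.2 and 12.1 FPKM in miR-Ctrl libraries 1 to 4. In all 3 noncoding RNAs the libraries numbered 2 were the lowest of both groups, and in all 3 the miR-204 library was the higher of that pair. The log2 differences were -0.13 for Meg3 (SE 0.47, adjusted p = 0.975), -0.11 for Rian (SE 0.39, adjusted p = 0.975) and -0.066 for Mirg (SE 0.46, adjusted p = 0.988).

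Dlk1 (chr12:109452823-109463336) encodes a transmembrane and secreted protein with EGF-like repeats that marks progenitor cells and holds back adipocyte differentiation. Dlk1 had 16.9, 13.2, 31.8 and 26.1 FPKM in miR-204 libraries 1 to 4, against 20.1, 12.6, 33.1 and 31.2 FPKM in miR-Ctrl libraries 1 to 4. It kept the order of libraries seen in its noncoding neighbours, with numbers 3 and 4 high, 1 lower and 2 lowest. The log2 difference was -0.12 (SE 0.36, adjusted p = 0.967).

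**Figure D1:**
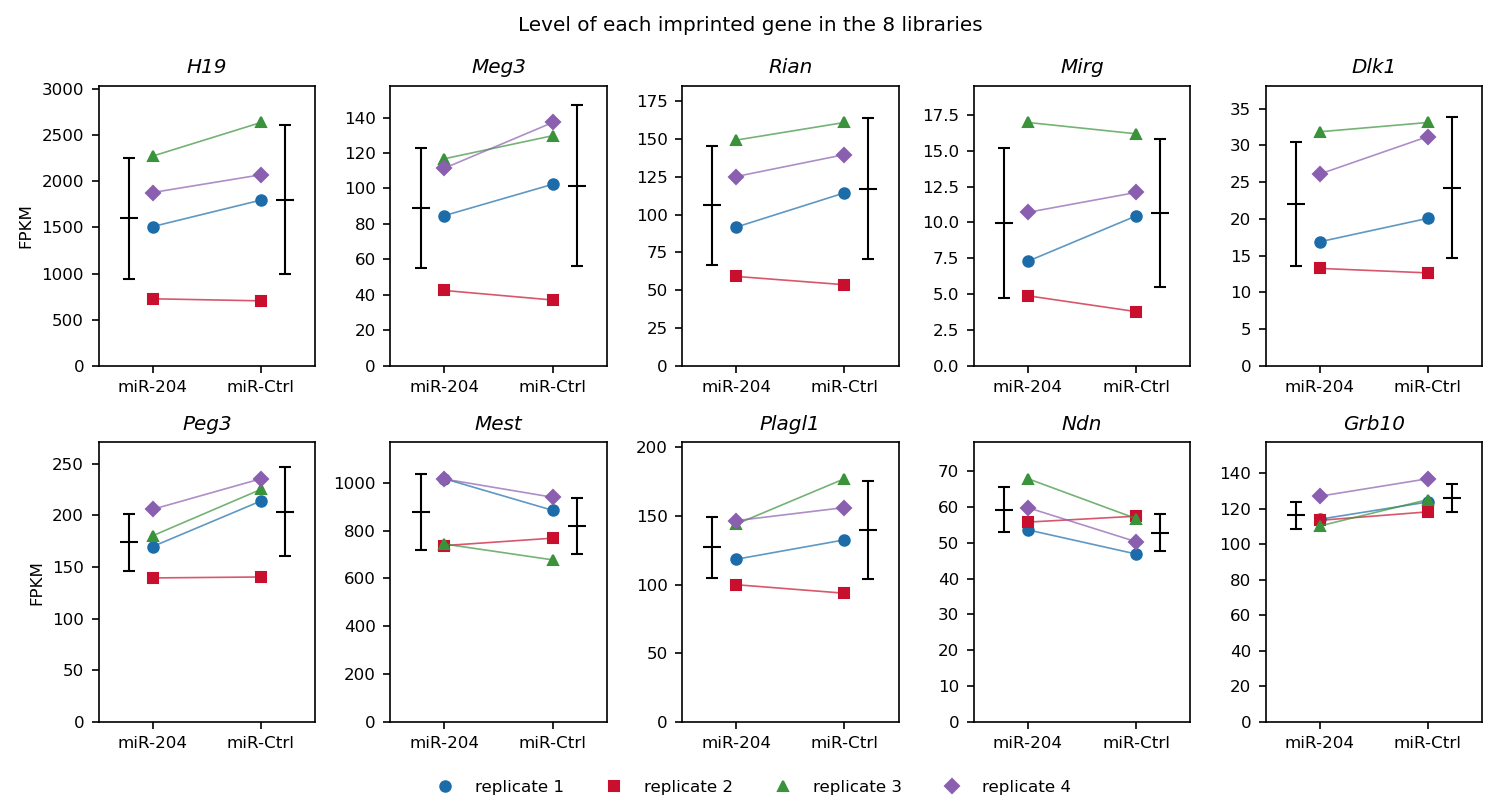
Level of each of the 10 imprinted genes in FPKM (vertical axis from 0), with miR-204 libraries at the left and miR-Ctrl libraries at the right of each panel; lines join libraries of equal replicate number, and black bars give the mean ± SD of 4 libraries. The red squares of replicate 2 lie at the bottom in both groups for H19, Meg3, Rian, Mirg, Dlk1, Peg3 and Plagl1, and not for Mest, Ndn or Grb10.

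Among the transcription factors and regulators read from the paternal copy, Peg3 (chr7:6703892-6730431, minus strand) and Plagl1, also called Zac1 (chr10:13060504-13131694, plus strand), encode zinc finger proteins, and Plagl1 is known to regulate other imprinted genes. Peg3 had 170, 139, 180 and 206 FPKM in miR-204 libraries 1 to 4, against 214, 140, 225 and 236 FPKM in miR-Ctrl libraries 1 to 4. Plagl1 had 119, 99.98, 144 and 147 FPKM in miR-204 libraries 1 to 4, against 133, 93.8, 177 and 156 FPKM in miR-Ctrl libraries 1 to 4. Outside number 2, each miR-204 library was below the miR-Ctrl library of its number in both genes, and the groups overlapped. The log2 difference was -0.21 for Peg3 (SE 0.18, adjusted p = 0.799) and -0.11 for Plagl1 (SE 0.21, adjusted p = 0.925).

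Mest and Ndn were the 2 members with a mean difference above 0. Mest (chr6:30723547-30748465, plus strand) encodes an enzyme of the alpha/beta hydrolase fold tied to growth and to the enlargement of fat tissue. Ndn (chr7:62346569-62350262, plus strand) encodes necdin, a MAGE family protein that restrains cell division. Mest had 1017, 737, 744 and 1015 FPKM in miR-204 libraries 1 to 4, against 885, 768, 677 and 939 FPKM in miR-Ctrl libraries 1 to 4. Ndn had 53.6, 55.7, 67.8 and 59.8 FPKM in miR-204 libraries 1 to 4, against 46.8, 57.4, 56.7 and 50.3 FPKM in miR-Ctrl libraries 1 to 4. Both were above their miR-Ctrl partner with miR-204 in numbers 1, 3 and 4 and below it in number 2. The log2 difference was 0.097 for Mest (SE 0.16, adjusted p = 0.908) and 0.16 for Ndn (SE 0.097, adjusted p = 0.692).

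Grb10 (chr11:11930508-12038683, minus strand), whose adaptor protein binds the insulin and IGF1 receptors and limits their signal, was the most even member. Grb10 had 114, 114, 110 and 127 FPKM in miR-204 libraries 1 to 4, against 124, 118, 125 and 137 FPKM in miR-Ctrl libraries 1 to 4. Every miR-204 library lay below the miR-Ctrl library of its number, but the highest miR-204 library exceeded the 3 lowest miR-Ctrl libraries, so the groups overlapped. The log2 difference was -0.12 (SE 0.069, adjusted p = 0.693).

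Taking the members by level per length, from the mean of the 8 libraries, H19 (1700 FPKM) came first and Mest (848 FPKM) second, followed by Peg3 (189 FPKM), Plagl1 (134 FPKM), Grb10 (121 FPKM), Rian (112 FPKM), Meg3 (95.2 FPKM), Ndn (56.0 FPKM), Dlk1 (23.1 FPKM) and Mirg (10.3 FPKM). Mest over Peg3, Peg3 over Plagl1, Rian over Meg3, Ndn over Dlk1 and Dlk1 over Mirg held in all 8 libraries. H19 exceeded Mest in 6 libraries, Plagl1 exceeded Grb10 in 6, Meg3 exceeded Ndn in 6 and Grb10 exceeded Rian in 5, so these neighbours changed places between libraries. H19 ranked between 10 and 113 among all genes of a library. The members together made up 0.405% to 0.980% of the summed FPKM of a library.

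In the test over all 8 libraries without matching the numbers, 0 of the 10 members were called higher and 0 lower at an adjusted p of 0.05, where 0.0258% of tested genes were called higher and 0.181% lower. None of the 10 had an unadjusted p under 0.05 by limma, beside 6.57% of tested genes higher and 2.02% lower at that p. The fold change was below 0 in 8 of the 10 members, and in 25.9% of all tested genes. The members' median log2 fold change was -0.11, beside 0.064 for all tested genes, and the 8 lower members lay between the 2.99th and 11.8th percentiles of fold change. The members were not chosen at random, so these shares describe them and carry no test. No member had groups that did not overlap, beside 4.32% of tested genes with all miR-204 libraries above and 1.58% with all of them below the miR-Ctrl libraries.

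The libraries of equal number resembled each other: each deviated from its group mean most like the library of its own number, with correlations over genes between 0.44 and 0.82, so the numbers were taken to pair the libraries. With the number as a block, which compares each miR-204 library with its miR-Ctrl partner, 0 of 10 members were called in either direction, where 12.4% of tested genes were called higher and 2.83% lower. At an unadjusted p under 0.05 this fit gave 1 member higher and 3 lower, beside 29.9% of tested genes higher and 5.73% lower. The block cut the standard error of H19's log2 difference to 0.057, but its adjusted p stayed at 0.137. Peg3 (adjusted p = 0.0610), Grb10 (adjusted p = 0.0746) and Ndn (adjusted p = 0.0979) came nearest to the threshold. The median gene was 0.064 higher with miR-204, and when each library was centred on its median as well, Grb10 fell by 0.18 on the log2 scale (adjusted p = 0.0397) and Peg3 by 0.28 (adjusted p = 0.0477). These were 2 of 10 members, where 4.32% of tested genes were called lower and 4.99% higher in that fit.

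Pair by pair, the number 2 libraries went against the rest. The log2 difference of H19 was -0.25, 0.045, -0.21 and -0.14 in pairs 1 to 4. That of Meg3 was -0.27, 0.19, -0.15 and -0.30, and that of Rian was -0.32, 0.14, -0.11 and -0.16. In these 3 noncoding RNAs, as in Dlk1 and Plagl1, pair 2 alone lay above 0, and in Mirg pairs 2 and 3 did, at 0.30 and 0.065. Ndn had 0.19, -0.041, 0.25 and 0.25, and Mest had 0.20, -0.060, 0.13 and 0.11, so in these paternally read genes pair 2 alone lay below 0. Peg3 and Grb10 were the 2 members lower with miR-204 in all 4 pairs, as were 7.44% of tested genes. No member was higher in all 4 pairs, whereas 33.9% of tested genes were.

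**Figure D2:**
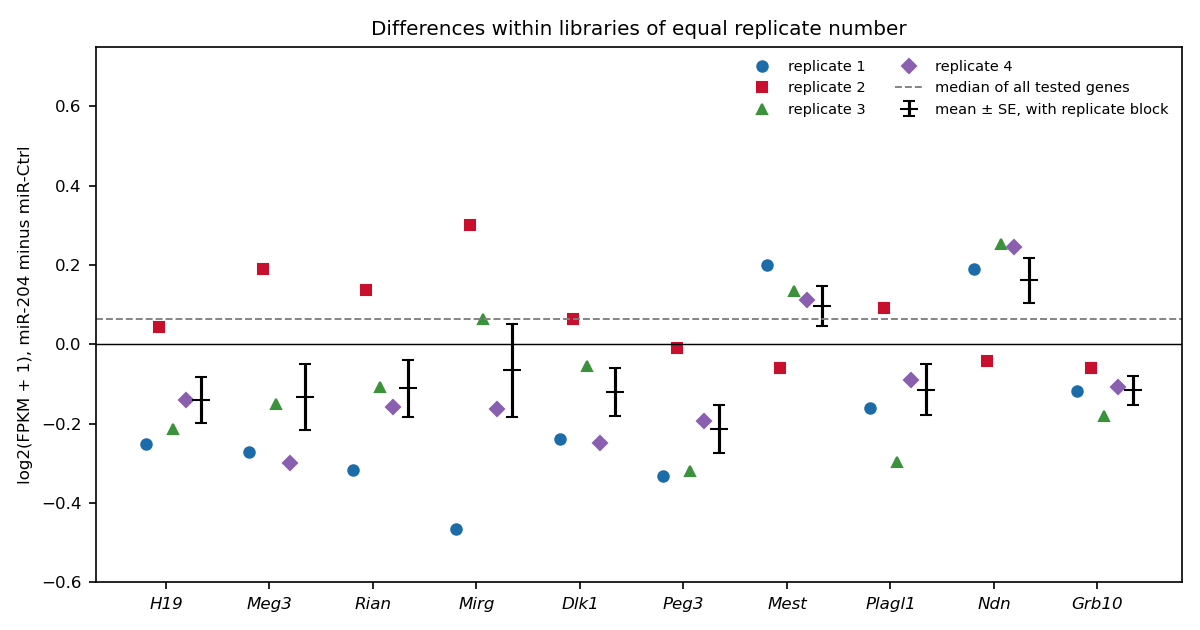
Difference in log2(FPKM + 1), miR-204 minus miR-Ctrl, within each pair of equal replicate number (coloured symbols), for the 10 genes; black bars give the mean ± SE of the fit with the number as a block, and the dashed line is the median of all tested genes. The replicate 2 difference is the highest of the 4 in H19, Meg3, Rian, Mirg, Dlk1, Peg3, Plagl1 and Grb10 and the lowest in Mest and Ndn.

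Leaving out both libraries of number 2 and keeping the block, 7 members fell and 2 rose, where 4.5% of tested genes were called lower and 23.9% higher. Meg3 fell by 0.24 on the log2 scale (adjusted p = 0.0126), H19 by 0.20 (adjusted p = 0.0199), Rian by 0.19 (adjusted p = 0.0331) and Dlk1 by 0.18 (adjusted p = 0.0434). Mirg, the lowest of the Dlk1-Dio3 members, had a similar difference of -0.19 that did not pass (adjusted p = 0.199). Among the other members Peg3 fell by 0.28 (adjusted p = 0.00909), Plagl1 by 0.18 (adjusted p = 0.0361) and Grb10 by 0.13 (adjusted p = 0.0308), while Ndn rose by 0.23 (adjusted p = 0.00886) and Mest by 0.15 (adjusted p = 0.0313). With the libraries also centred on their medians, a setting chosen after seeing the data, the count was 7 lower, where 8.84% of tested genes were called lower, and 1 higher, where 10.9% were. In that setting Ndn was the one called higher, and Mest had a difference of 0.076 (adjusted p = 0.175). With quantile normalization, also chosen after seeing the data, the count was again 7 lower, where 8.99% of tested genes were, and 1 higher, where 9.21% were. Leaving out another number instead, with the block, called 0 members in either direction, and these fits called few genes of any kind: 0.715% of tested genes lower and 0.766% higher without number 1, 1.28% lower and 2.03% higher without number 3, and 0.413% lower and 0.362% higher without number 4. Pair 2 differed in sign from the rest in H19, Meg3, Rian, Dlk1, Plagl1, Mest and Ndn, so leaving it out narrows the spread of their differences. H19, Meg3, Rian and Dlk1 also varied alike over the libraries, so these calls are not independent of each other. Whether the difference of pair 2 departs from that of the other pairs was not tested.

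The summed markers of cartilage were lowest in the libraries numbered 2, as were 7 of the 10 members. Mest, Ndn and Grb10 did not share that pattern. The summed FPKM of the 11 chondrocyte markers found, such as Col2a1 and Acan, was 13925 in miR-204 library 2 and 13771 in miR-Ctrl library 2, against 26021 to 42393 in the other 6 libraries. Between the groups the sum ran from 13925 to 33989 FPKM with miR-204 and from 13771 to 42393 FPKM with miR-Ctrl. Over all 8 libraries the fit without the block called 0 of the 11 markers in either direction. With the block 2 were called lower and 0 higher, beside 2.83% of tested genes lower and 12.4% higher. Without number 2 and with the block, 7 of the 11 markers were called lower and 0 higher. In that fit 4.5% of tested genes were called lower and 23.9% higher. Matn3 went the other way, with a difference of 0.19 that did not pass (adjusted p = 0.0733), and Matn1 was level at -0.00036. Osteoblast markers summed to 23.6 FPKM in miR-204 library 2 and 22.8 FPKM in miR-Ctrl library 2, against 5.22 to 11.7 FPKM elsewhere, and adipocyte markers to 22.1 FPKM in miR-204 library 2 and 34.7 FPKM in miR-Ctrl library 2, against 2.63 to 10.5 FPKM elsewhere. These sums were carried by Ibsp and Bglap and by Fabp4: the osteoblast factor Sp7 averaged 1.82 FPKM in number 2 and 3.02 FPKM in the other 6 libraries, the adipocyte factor Pparg averaged 1.02 FPKM in number 2 and 1.06 FPKM in the other 6, and Adipoq and Plin1 were below 1 FPKM in every library. The libraries numbered 2 thus held less cartilage marker RNA together with less H19, Meg3 and Dlk1, and their part in the members' values was not tested. The 4 endothelial markers were below 1 FPKM in every library, and macrophage markers, nearly all Cd68, summed to 2.82 to 4.96 FPKM with miR-204 and 0.623 to 2.39 FPKM with miR-Ctrl. Fibroblast markers summed to 1511 to 3483 FPKM with miR-204 and 1570 to 3330 FPKM with miR-Ctrl, and muscle markers to 2.99 to 8.53 FPKM with miR-204 and 0.851 to 5.02 FPKM with miR-Ctrl. The muscle sum was nearly all Acta1, and Myod1, Pax7 and Myf5 were at or near 0. With the block Cd68 rose by 1.01 on the log2 scale with miR-204 (adjusted p = 0.00997), Acta1 by 0.94 (adjusted p = 0.0173) and the fibroblast marker Thy1 by 0.42 (adjusted p = 0.0330), and the other 5 fibroblast markers did not pass. That fit called 12.4% of tested genes higher. Without the block Cd68 (adjusted p = 0.247), Acta1 (adjusted p = 0.599) and Thy1 (adjusted p = 0.745) did not pass either. In bulk RNA, fewer cells of a type and less RNA per cell cannot be told apart.

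The replicate number, a term with 3 degrees of freedom against 1 for the treatment, took the greater part of the sum of squares of each member. A test of the number term in the same fit passed for 8 of the 10 members, beside 51.5% of tested genes, and Grb10 (adjusted p = 0.0603) and Ndn (adjusted p = 0.0755) were the ones that did not pass. The number took 98.2% of the sum of squares of H19, 97.0% of Dlk1, 96.9% of Meg3, 96.9% of Rian and 95.0% of Mirg, beside a median of 73.6% over all tested genes. Grb10 and Ndn had the largest shares for the treatment among the members, 36.5% and 30.0%, and the smallest for the number. Peg3 followed with 15.0% for the treatment, and the other 7 members had at most 5.22%, beside a median of 10.2% over all tested genes.

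**Figure D3:**
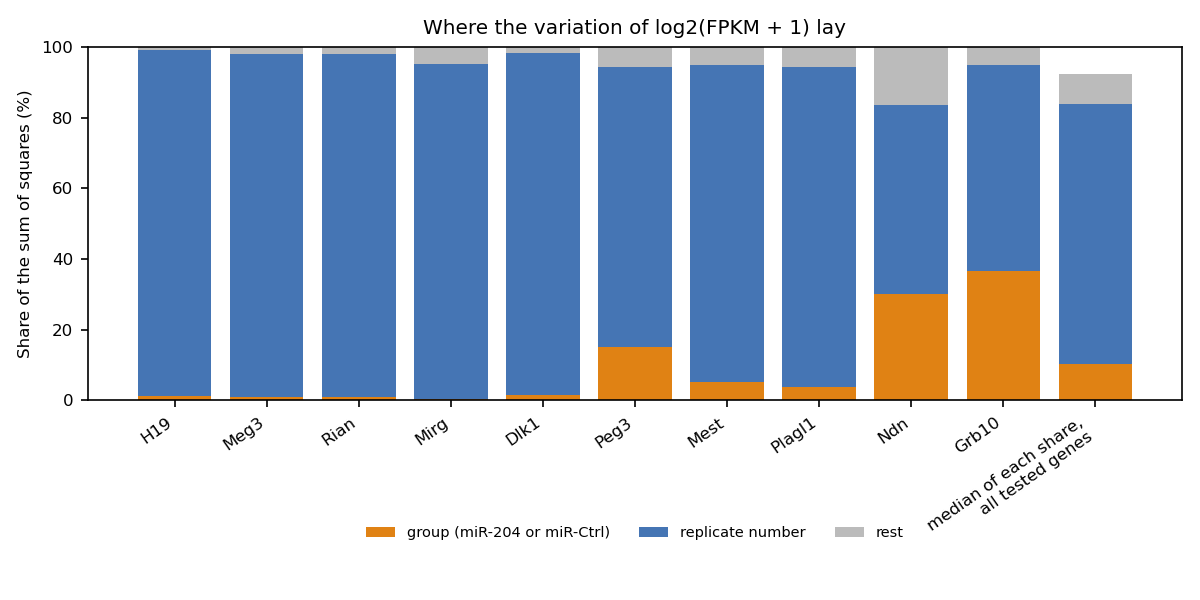
Share of the sum of squares of log2(FPKM + 1), in percent, taken by the group (orange), the replicate number (blue) and the rest (grey) for each of the 10 genes; the last bar stacks the median of each share over all tested genes, so it does not reach 100. The blue part fills 98.2% of the H19 bar and 53.6% of the Ndn bar.

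Both number 2 libraries lay below all 6 others in 7 members: H19, Meg3, Rian, Mirg, Dlk1, Peg3 and Plagl1. Of all tested genes 8.98% showed that pattern. The mean of the other 6 libraries was 2.86 times that of the number 2 libraries for Meg3, 2.84 times for H19 and for Mirg, 2.31 times for Rian and 2.05 times for Dlk1. It was 1.51 times for Plagl1, 1.47 for Peg3, 1.17 for Mest and 1.06 for Grb10, and for Ndn the ratio was 0.987. The maternally read noncoding RNAs and Dlk1 thus varied most between libraries, and Grb10, with a highest library 1.24 times its lowest, varied least.

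Within the Dlk1-Dio3 domain the ratios between genes spanned less than the levels of the genes. This was not particular to the domain: H19, on chromosome 7, followed Meg3 over the 8 libraries more closely than Rian, Mirg or Dlk1 did. Ratios within a library do not depend on how the library was scaled. The ratio of Rian to Meg3 ran from 1.08 to 1.39 in miR-204 libraries and from 1.02 to 1.45 in miR-Ctrl libraries, a 1.42-fold range over the 8 libraries, in which Rian itself spanned 3.00-fold. The ratio of Mirg to Meg3 ran from 0.0861 to 0.145 with miR-204 and from 0.0881 to 0.125 with miR-Ctrl, and that of Dlk1 to Meg3 from 0.199 to 0.312 with miR-204 and from 0.196 to 0.341 with miR-Ctrl. None of the 3 ratios passed between the groups by the exact two-sided permutation test, with p = 0.914 for Rian to Meg3, 0.771 for Mirg to Meg3 and 0.971 for Dlk1 to Meg3, and 0.971 for each after Benjamini-Hochberg adjustment over the 3. The smallest p this test allows is 0.0286. The log2 ratio of Rian to Meg3 was 0.278 ± 0.167 with miR-204 and 0.256 ± 0.217 with miR-Ctrl (mean ± SD, n = 4 each), a difference of 0.021. The p-values do not show that the ratios are equal.

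The members with the widest spread over the libraries were H19, Meg3 and Mirg, and the tested genes outside the list whose profile lay nearest were found for each, as the smallest root mean square difference of centred log2 values over the 8 libraries. For H19 these were Sox8 (0.077), a transcription factor of the SOX E group expressed with Sox9 in cartilage, Gramd2 (0.108) and Lsp1 (0.128). Sox8 had 5.95, 2.69, 10.9 and 7.86 FPKM in miR-204 libraries 1 to 4, against 7.56, 2.79, 12.3 and 8.74 FPKM in miR-Ctrl libraries 1 to 4. Within each group this was the order of libraries seen in H19. In number 2 Sox8 was lower with miR-204, whereas H19 was higher. Lsp1, at chr7:142460809-142494867, lies 80.66 kb from H19, and Igf2 lies 72.62 kb from H19. For Meg3 the nearest were Wscd2 (0.171), Tgfbi (0.177), a secreted matrix protein, and Sox8 (0.181). For Mirg they were Sox8 (0.128), Proser2 (0.171) and Lsp1 (0.174). Among the members themselves H19 and Meg3 lay 0.126 apart, closer than any gene outside the list lay to Meg3, and Rian and Mirg lay 0.138 apart.

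Promoter letters were read for the 9 members with an entry in the RefSeq table (13 entries of 250 bases before to 50 after a start, GRCm38.p6). The full cyclic AMP response element TGACGTCA, the letters bound by CREB family factors, was present in 2 of the 13 entries, 1 of Meg3 and 1 of Peg3. It was present in 1.79% of the 32851 promoters of the table. The Meg3 and Peg3 promoters with the element are shown because they belong to the members with the lowest fold changes of their kind without number 2, Meg3 among the noncoding and Peg3 among the coding genes. Capitals mark TGACGTCA in both, the TATA box letters TATAAA with the overlapping reverse match TTTATA in Meg3, and GGGGCCCC, letters recognised by the Plagl1 protein, in Peg3, read 5′ to 3′ on the gene's strand:
Meg3 chr12:109540746-109541045, plus strand: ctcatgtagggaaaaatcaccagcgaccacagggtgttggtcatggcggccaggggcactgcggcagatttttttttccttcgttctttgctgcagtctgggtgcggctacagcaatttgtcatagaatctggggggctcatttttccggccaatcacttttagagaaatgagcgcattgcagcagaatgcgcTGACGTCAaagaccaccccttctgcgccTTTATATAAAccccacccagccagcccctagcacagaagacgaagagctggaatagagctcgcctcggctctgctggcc
Peg3 chr7:6730370-6730669, minus strand: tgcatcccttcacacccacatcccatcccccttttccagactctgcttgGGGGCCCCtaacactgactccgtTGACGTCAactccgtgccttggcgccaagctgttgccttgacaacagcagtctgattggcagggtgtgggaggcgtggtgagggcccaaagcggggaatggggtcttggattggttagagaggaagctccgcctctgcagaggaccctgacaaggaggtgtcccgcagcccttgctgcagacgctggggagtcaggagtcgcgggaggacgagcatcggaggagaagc
In Meg3 the response element begins 57 bases and the TATAAA match 25 bases before the start, and in Peg3 the response element begins 178 bases before it. TATAAA occurred in 13.6% of all promoters and GGGGCCCC in 1.08%. The E-box CACGTG, present in 7.15% of all promoters, was found in Plagl1, and GCCATNTT, the letters of the YY1 factor, present in 6.05%, in no member. TGACG, contained in the full element, was found in Meg3, Peg3, Dlk1 and Grb10 and in 20.8% of all promoters. Both strands were searched, and the matches are letters in these windows, not measured binding.

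Of 52 other imprinted genes listed, 31 had enough expression to be tested: 17 read from the maternal and 14 from the paternal copy, as background knowledge that does not hold in every tissue. The test without the block called 0 of them. With the block 5 maternally read genes rose and 3 fell, and 2 paternally read genes rose and 0 fell, beside the 12.4% higher and 2.83% lower of all tested genes. Their median log2 fold change was 0.030 for the maternally and 0.059 for the paternally read genes, beside 0.064 for all tested genes.

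The 3 that fell included 2 brakes on growth. Igf2r encodes the receptor that takes up IGF2 and sends it to lysosomes, so that it limits growth. Igf2r had 60.9, 59.8, 74.1 and 76.6 FPKM in miR-204 libraries 1 to 4, against 79.2, 78.6, 105.1 and 103.5 FPKM in miR-Ctrl libraries 1 to 4. It fell by 0.42 on the log2 scale with the block (adjusted p = 0.00427) and was lower in 4 of 4 pairs, number 2 included, and its 3′ untranslated region of 1304 bases held 1 8mer for miR-204-5p. Cdkn1c encodes p57, an inhibitor of cyclin-dependent kinases that growing cartilage needs for chondrocytes to leave the cell cycle. Cdkn1c had 139, 105, 258 and 200.1 FPKM in miR-204 libraries 1 to 4, against 188, 141, 398 and 248 FPKM in miR-Ctrl libraries 1 to 4, and fell by 0.45 with the block (adjusted p = 0.00903), with no seed match of any of the 4 kinds in its 3′ untranslated region. Asb4 fell by 0.48 (adjusted p = 0.0240), and its 3′ untranslated region held 1 7mer-m8 and 1 7mer-A1. Its level was near the minimum for testing, with a mean of 1.80 FPKM and a range of 0.860 to 3.70 FPKM. Without the block these 3 had adjusted p values of 0.417 for Igf2r, 0.791 for Cdkn1c and 0.582 for Asb4.

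Among the genes that rose with the block, Phlda2, which restrains placental growth, rose by 0.41 (adjusted p = 0.0393). It too was near the minimum for testing, with a mean of 1.70 FPKM and a range of 0.631 to 3.37 FPKM. Osbpl5 rose by 0.31 (adjusted p = 0.0136) and the tetraspanin Cd81 by 0.24 (adjusted p = 0.0390). The paternally read Peg13 rose by 0.24 (adjusted p = 0.0187) and Impact by 0.23 (adjusted p = 0.0290). With the libraries centred as well, Osbpl5 (adjusted p = 0.0180) passed, and Phlda2 (0.0657), Cd81 (0.0836), Peg13 (0.0524) and Impact (0.0795) did not. That fit called 4.99% of tested genes higher. Igf2, the growth factor read from the paternal copy beside H19, had 3503 ± 628 FPKM with miR-204 and 3884 ± 850 FPKM with miR-Ctrl (SD, n = 4 each), a difference of -0.14 that was lower in 4 of 4 pairs and did not pass with the block (adjusted p = 0.0774). Without number 2 and with the block, Igf2 fell by 0.16 (adjusted p = 0.0478), as its neighbour H19 fell by 0.20.

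**Figure D4:**
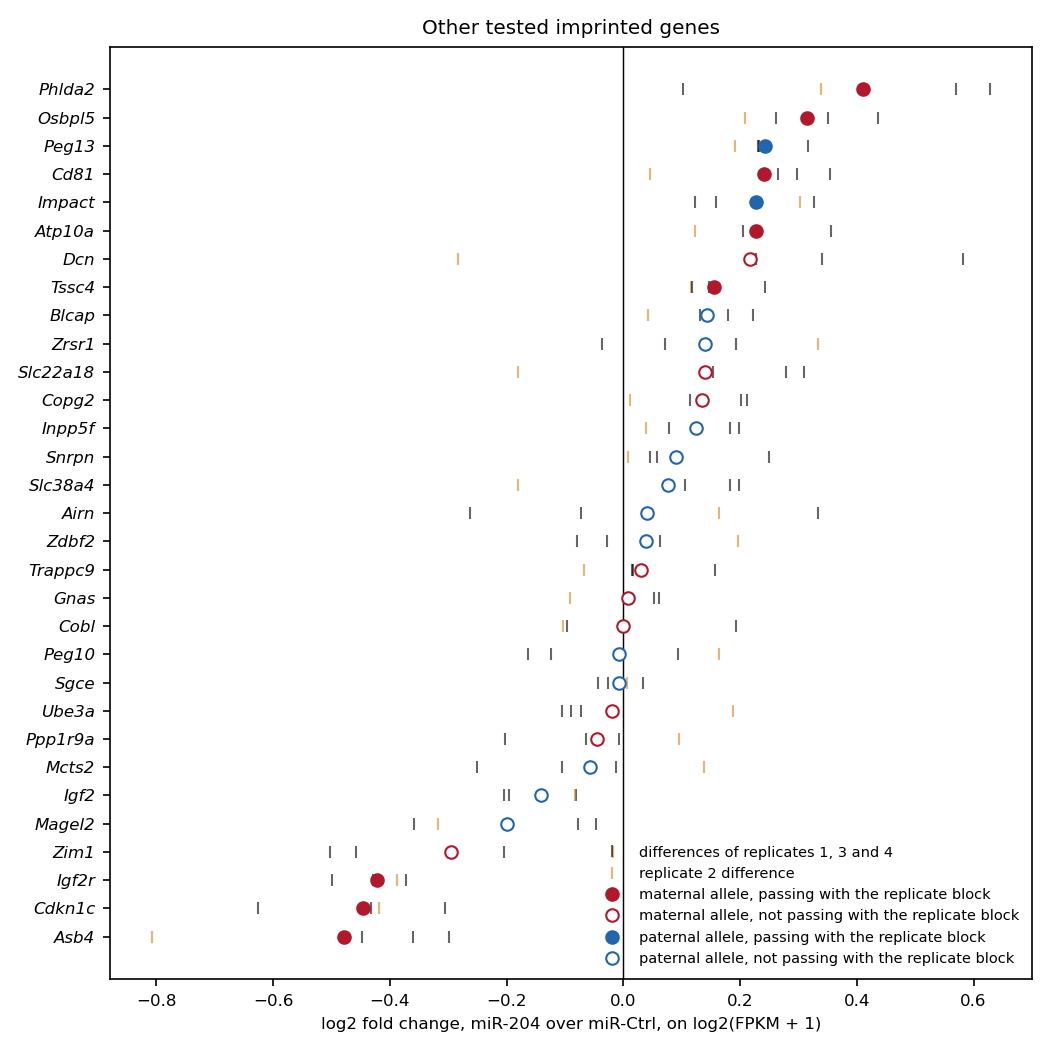
Log2 fold change, miR-204 over miR-Ctrl, of the 31 other tested imprinted genes (points; red for the maternal and blue for the paternal copy, filled where the gene passed with the replicate block), with the difference of each pair as a tick, orange for replicate 2. Igf2r and Cdkn1c lie at -0.42 and -0.45 with all 4 ticks below 0, and Phlda2 lies at 0.41.

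The growth partners of the members, among them the IGF receptor and the insulin receptor substrates, gave 0 of 11 tested genes called with the block, beside the same 12.4% and 2.83%. Igf1r, the receptor that carries the signal of IGF1 and IGF2, differed by 0.089 with miR-204 (adjusted p = 0.198 with the block). Igf2bp1, a fetal RNA-binding protein that binds Igf2 mRNA, averaged 0.263 FPKM and was not tested. Of the 47 tested genes of these lists with a searched 3′ untranslated region, 5 held an 8mer for miR-204-5p: Igf2r, Igf1r, Hmga2, Insr and Zdbf2. Hmga2 differed by 0.25 with miR-204 (adjusted p = 0.105 with the block), Zdbf2 by 0.038 (adjusted p = 0.735) and Insr by 0.036 (adjusted p = 0.567). Of 7 tested genes that maintain imprints, the test without the block called 0. With the block 3 rose and 0 fell, beside 12.4% of tested genes called higher and 2.83% lower. Uhrf1, which brings the methyltransferase to newly copied DNA, rose by 0.36 (adjusted p = 0.0241). Zfp57, which guards methylated imprints, rose by 0.25 (adjusted p = 0.0404), and Dnmt1, the maintenance methyltransferase, by 0.18 (adjusted p = 0.0346). With the libraries centred as well, Uhrf1 passed (adjusted p = 0.0384) and Zfp57 (0.0891) and Dnmt1 (0.104) did not. That fit called 4.99% of tested genes higher.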

How the data were processed

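Libraries were made from polyadenylated RNA with a strand-specific kit, per the labels' protocols, and reads were aligned with TopHat (version not given in the sources used here) to mm10 and quantified with Cufflinks 2.2.1, per the submitters' processing notes. The values used, deposited by the authors, are FPKM per gene in 1 table, from which depth in reads is unknown. Summed FPKM ran from 416560 to 490818 per library. From steps in low values, relative depth was 0.798 to 0.962 in miR-204 libraries and 0.772 to 1 in miR-Ctrl libraries, with the numbers 2 the lowest. Genes averaging 1 FPKM or more across the 8 libraries entered the test on log2(FPKM + 1) with limma 3.58.1 in R 4.3.3 (trended prior, two-sided, Benjamini-Hochberg over all 11612 genes, threshold 0.05), with group as the term. Fold changes are on that scale, which understates those of low genes. Symbols turned into dates (27) or blank (131) were looked up by gene ID, and 156 were restored.

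The labels give replicate numbers without saying what they mark. Deviations from the group means correlated within each number (0.44, 0.82, 0.76 and 0.62 for numbers 1 to 4), so the fit with the number as a block is given beside the first where it changes a call. On simulated data over 11612 genes, the fit without the block called 52% of the simulated 1.5-fold changes and 76% of the 2-fold ones; with the block it called 89% and 97%. Ratios used a pseudocount of 0.1 FPKM and the exact permutation test (70 assignments). Seed matches were searched in GENCODE M21 transcripts (3′ untranslated regions of coding genes). The members and lists were chosen with earlier results of these data known. All 10 members are named; from the other lists Igf2, Cdkn1c, Igf2r, Igf1r and Igf2bp1 and up to 6 called genes per list with the largest change are named, and for the 3 most variable members the 3 nearest profiles. Alternatives changed the pseudocount, the filter, the scaling, the block and the libraries used.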

Additional observations from a re-analysis of the deposited data

How the results depend on the processing

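Of all tested genes, 3 were called higher and 21 lower without the block. With no filter on low values 0 and 9 were, with libraries centred 8 and 55, and with quantile normalization 7 and 66. With the replicate block 1436 were called higher and 329 lower, and 579 and 502 with centring as well. Leaving out 1 library gave 0 to 4 higher and 1 to 16 lower, and leaving out 1 number gave 0 to 2 and 0 to 16. With the block and a number left out, 89 were higher and 83 lower without number 1, 2781 and 522 without number 2, 236 and 149 without number 3, and 42 and 48 without number 4. Settings chosen after seeing the data gave 555 higher and 536 lower (block, quantile normalization), and without number 2 with the block 1271 and 1027 (centred) and 1070 and 1044 (quantile). Members called lower were 2 with block and centring, and without number 2 with the block 7, and 7 in each added scaling; members called higher were 2 without number 2 with the block, and 1 in each added scaling. Of the 49 genes tested in the 4 other lists, the block called 10 higher and 3 lower, and with centring 2 and 3. Without 1 number it called 0 to 17 higher and 1 to 5 lower; the added settings gave 2 and 4 (quantile), 8 and 7 (centred, without number 2) and 5 and 5 (quantile, without number 2).

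Over the fits that left out 1 library, with no call, the fold change of H19 ran from -0.54 without miR-Ctrl library 2 to 0.20 without miR-204 library 2. Between the same libraries Meg3 ran from -0.56 to 0.18, Rian from -0.45 to 0.14, Mirg from -0.45 to 0.19 and Dlk1 from -0.39 to 0.086, and Plagl1 ran from -0.29 to 0.012 (the upper value without miR-Ctrl library 3). Mirg was at 0.068 without number 1, with or without the block. Ratios to Meg3 ranged over left-out libraries from -0.056 to 0.11 for Rian, -0.070 to 0.18 for Mirg and -0.11 to 0.16 for Dlk1. The exact paired test gave 0.875, 0.625 and 0.875, and cannot go below 0.125. The calls that depend on leaving out number 2 rest on 3 pairs. The cause of these shifts was not tested, and what depth limits cannot be given, since depth in reads is unknown.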
